A study of Mus musculus with 36 samples.

Results

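The cluster on mouse chromosome 3 that holds Pag1 and 5 genes of the fatty acid binding protein family (Fabp5, Pmp2, Fabp9, Fabp4 and Fabp12) was followed through 3 maps of replication timing (RT), the order in which the genome is copied in S phase. The 6 neighbours, out of 22350 protein-coding genes of the annotation, were taken along with 2 Mb on either side, and they were picked because of the RT states listed for them in these maps. The states of the 6 genes are therefore a description and carry no test. In primary B cells all 6 gene starts lay in 1 early domain. In CH12 cells 5 of the 6 lay in a late domain and that of Fabp12 in a narrow middle domain. In a map named for mouse embryonic fibroblasts (MEFs) all 6 lay in a middle domain.

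RT came from Repli-seq, in which asynchronously dividing cells take up BrdU, early and late S phase cells are sorted, and the labelled DNA of each fraction is sequenced. The series held 36 libraries in 7 groups, and the 2 groups with a map used here account for 8 of them. The first was CH12, a mouse B cell lymphoma line (clone F3, under IL4/CD40/TGF beta stimulation per the labels), without a Rif1 deletion, infected with a lentivirus carrying a short hairpin RNA against LacZ (shLacZ) as infection control and selected with puromycin. The second was WT primary activated splenic B cells, without any hairpin, from Rif1+/+ mice of a colony kept on a C57BL/6 background, both sexes being used without distinction; the labels give neither age nor the activating agents for these cells alone. Each of the 2 groups had 2 early and 2 late libraries. CH12 is 1 line and 1 clone, so the CH12 and primary B maps differ in transformation, hairpin, selection and origin together, and these cannot be told apart. The MEF map is tied to no sample label, and the study lists MEF Repli-seq data as taken from a public source. Replicates had been merged before states were called, so there is 1 map per condition, no replicate error and no test between maps. Read depth is unknown from the maps. The study called the states of CH12 and of primary B cells each from their own RT values. A step in state between maps, called earlier or later below, is therefore not a measured change in RT.

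Early-replicating DNA tends to be rich in genes and open chromatin and late-replicating DNA poor in both, and some domains are known to change their timing between cell types. Fatty acid binding proteins are small cytosolic carriers of long-chain fatty acids and related lipids. Each is used in its own tissues, and several of their genes lie side by side as products of tandem duplication. Pag1 is unrelated to them. It encodes a transmembrane adaptor of lipid rafts that, once phosphorylated, brings the kinase Csk to Src family kinases, which Csk inhibits.

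In mm9 coordinates the 6 genes ran from Pag1 to Fabp12 over 613.7 kb. Pag1 (ENSMUSG00000027508.9), at chr3:9687479-9833679 on the minus strand, was the longest at 146.2 kb with 9 exons. Fabp5 (ENSMUSG00000027533.9), the epidermal family member, which immune cells also use, lay 178.9 kb further on at chr3:10012548-10016607 and was the only one of the 6 on the plus strand. Pmp2 (ENSMUSG00000052468.6), which encodes the P2 protein of peripheral myelin, followed after another 163.2 kb at chr3:10179851-10183885. Fabp9 (ENSMUSG00000027528.7), the testis member, at chr3:10193626-10197222, and Fabp4 (ENSMUSG00000062515.2), the fat cell and macrophage member, at chr3:10204347-10208576, were separated from their left neighbours by 9.74 kb and 7.124 kb. Fabp12 (ENSMUSG00000027530.8), a member described in retina and testis, closed the row at chr3:10244209-10301183. The family thus fell into Fabp5 on its own and a tight group of 4 genes within 121.3 kb. Fabp5, Pmp2, Fabp9 and Fabp4 were 3.597 to 4.23 kb long, and Fabp12 spanned 56.98 kb.

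The 5 family members shared 57.9% to 72.1% of aligned bases between their coding sequences over the 10 possible pairs, with a median of 62.3%. Pmp2 and Fabp4 were the most alike and Fabp5 and Fabp9 the least. Fabp5 had a coding length of 408 bases and the other 4 had 399.

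The DNA just before gene starts of the cluster was read from the NCBIM37 genome, the build called mm9, to show examples of starts that shared 1 combination of states. Shown are 200 bases that end 1 base before the annotated start, 5′ to 3′ on the strand of the gene, for the 2 CpG-rich starts (Pag1, chr3:9833680-9833879, and Fabp5, chr3:10012348-10012547) and for a gene of the tight group (Fabp9, chr3:10197223-10197422). Capitals mark GC boxes (GGGCGG, or CCGCCC on the other strand), CCAAT boxes (CCAAT or ATTGG) and TATA boxes (TATAAA or TTTATA), none of which overlapped.
Pag1: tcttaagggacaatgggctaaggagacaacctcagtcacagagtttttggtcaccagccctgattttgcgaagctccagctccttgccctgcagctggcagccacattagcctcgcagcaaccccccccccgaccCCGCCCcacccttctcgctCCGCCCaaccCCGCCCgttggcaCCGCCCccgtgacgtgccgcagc
Fabp5: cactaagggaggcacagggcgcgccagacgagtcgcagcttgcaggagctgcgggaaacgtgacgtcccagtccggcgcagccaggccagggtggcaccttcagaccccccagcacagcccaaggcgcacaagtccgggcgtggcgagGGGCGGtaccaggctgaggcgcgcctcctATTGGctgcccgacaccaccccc
Fabp9: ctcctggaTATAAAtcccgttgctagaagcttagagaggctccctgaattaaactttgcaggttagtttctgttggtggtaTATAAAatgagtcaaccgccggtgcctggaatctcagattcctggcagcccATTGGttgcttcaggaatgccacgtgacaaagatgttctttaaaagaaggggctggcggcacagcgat
The Pag1 window held 4 GC boxes, all within 65 bases of the start, and 12 CpG dinucleotides at a GC content of 64.5%. The Fabp5 window held 1 GC box and 1 CCAAT box, 17 CpG and 70.5% GC. The median over 22345 coding genes was 7 CpG and 55.5% GC. Fabp9 had 6 CpG at 47.5% GC and 2 TATAAA matches, which began 192 and 119 bases before the start. Its CCAAT box, in reverse orientation, began 68 bases before the start. Pmp2 had 3 CpG and 1 CCAAT box, and Fabp12 had 9 CpG and no match.

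Over all coding genes 38.03% of such windows held a GC box, 30.62% a CCAAT box and 10.05% a TATA box on either strand. A match describes letters only and says nothing of which factor binds.

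Pag1 started in the late (L) state in CH12, the early (E) state in primary B cells and the middle (M) state in the MEF map. Its whole body of 8 bins of 20 kb had the same state as its start in each map. In CH12 its start lay 153.7 kb from the nearest domain edge, and its far end lay 7.478 kb inside the left edge of the late domain. In primary B cells the start was 566.3 kb from an edge, the largest such distance of the 6 genes in that map, and in the MEF map it was 433.7 kb from one.

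Fabp5 too was L in CH12, E in primary B cells and M in the MEF map. Its start was the deepest of the 6 inside the CH12 late domain, at 267.5 kb from the nearest edge, and the deepest inside the MEF middle domain, at 612.5 kb. In primary B cells it lay 387.5 kb inside the early domain.

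Pmp2, Fabp9 and Fabp4 had the same L, E and M states. In CH12 they lay closer to the right edge of the late domain than Pag1 and Fabp5, at 96.11 kb, 82.78 kb and 71.42 kb. The corresponding distances were 216.1, 202.8 and 191.4 kb in primary B cells and 456.1, 442.8 and 431.4 kb in the MEF map.

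Fabp12 was the exception. Its annotated start lay in the M state in CH12, 21.18 kb past the edge at which the late domain ended, while 2 of the 4 bins of its body were L. It was E in primary B cells, 98.82 kb from the right edge of the early domain, and M in the MEF map. The annotation lists 5 coding transcripts of Fabp12. The 2 long ones started at 10301183 and 10301174, in the CH12 middle domain. The 3 short ones, of 8.18 to 8.335 kb, started at 10254252, 10254225 and 10252388, in the late domain. The state read for Fabp12 in CH12 therefore depended on the transcript, and the states in the other 2 maps did not. In CH12 all 6 starts lay closer to an edge than the 300 kb span over which the study smoothed its RT values, as did those of Pmp2, Fabp9, Fabp4 and Fabp12 in primary B cells.

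**Figure D1:**
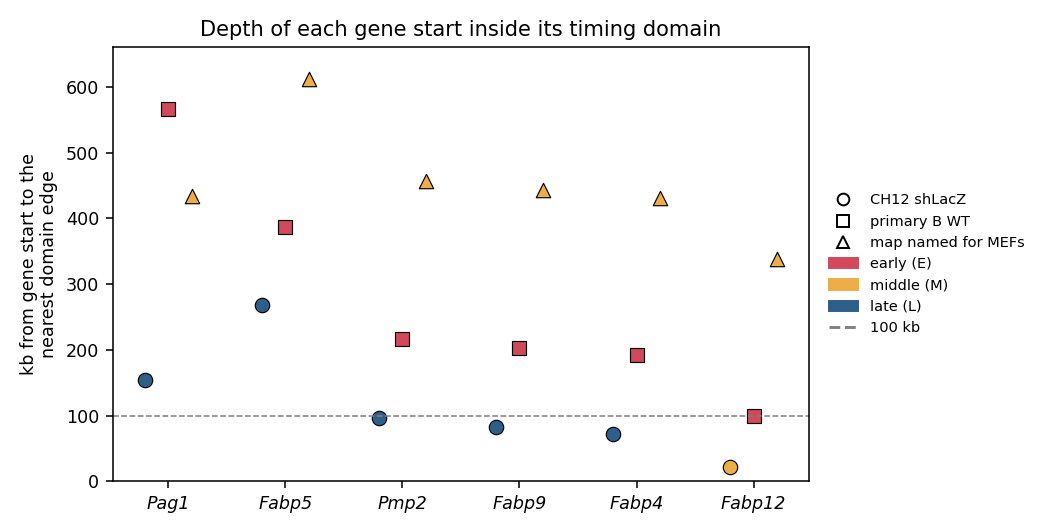
Distance in kb from the start of each of the 6 genes to the nearest domain edge, for CH12 shLacZ (circles), primary B WT (squares) and the map named for MEFs (triangles), coloured by the state at the start. In CH12 the starts of Pmp2, Fabp9, Fabp4 and Fabp12 sit below the dashed line at 100 kb, and Fabp5 sits highest at 267.5 kb.

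Set against all coding genes, a late start in CH12 joined to an early one in primary B cells was rare. It held for 133 genes, or 0.595% of the 22350, and for 5 of the 6 members. An earlier state in primary B cells than in CH12, of any size, held for 18.8% of genes and for 6 of 6 members. E in primary B cells with M in the MEF map held for 8.19% of genes and 6 of 6 members, and L in CH12 with M in the MEF map for 9.82% of genes and 5 of 6 members. A different state in each map held for 2.00% of genes and 5 of 6 members. The full combination of L, E and M held for 72 genes, or 0.322%, again with 5 of 6 members. The members were chosen on these very states and lie in a single stretch of DNA, so nothing is read from their counts beyond the description.

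The 72 genes with that combination fell into 33 loci when genes up to 1 Mb apart were joined, on 17 chromosomes. The locus of Pag1 and the fatty acid binding genes contributed 6 of them, its 5 members and the predicted gene Gm9833, which lies between Fabp5 and Pmp2. The largest locus held 10 genes, and 15 loci held 1 gene each.

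The domains that set these states were laid out differently in each map. In CH12 a late domain of 600 kb (chr3:9680001-10280000) covered Pag1 to the body of Fabp12. To its left lay a middle domain of 960 kb, and to its right a middle domain of 100 kb (chr3:10280001-10380000) that holds the start of Fabp12. Late domains of 5720 kb, which started at chr3:3000001, and 4140 kb enclosed all of these. The CH12 late domain of the cluster was thus a late stretch between middle stretches, as were all 750 late domains of CH12. The M state called before base 3000001 of the chromosome counts as a middle stretch here. The 100 kb domain spans 5 bins and is narrower than the smoothing span.

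In primary B cells 1 early domain of 1500 kb (chr3:8900001-10400000) covered the same ground with all 6 genes inside. Middle domains of 460 kb and 260 kb flanked it, and late domains followed on both sides. It was longer than 77.42% of the 660 early domains of that map, which had a median of 740 kb. It was also the first early domain of chromosome 3 counted from the centromere end of the assembly, and the next one started 8799 kb beyond Fabp12. In CH12 no bin of this early domain was E, with 44 of its 75 bins M and 31 L. In the MEF map 21 of the 75 were E and 54 M.

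In the MEF map the 6 genes lay in a middle domain of 1240 kb (chr3:9400001-10640000), longer than 76.36% of the 1083 middle domains, whose median was 620 kb. An early domain of 420 kb (chr3:8980001-9400000) ended 287.5 kb to the left of Pag1. It held the starts of Tpd52, which encodes tumour protein D52, and Zbtb10, a zinc finger gene, but none of the 6 genes. The early parts of the primary B and MEF maps therefore overlapped to the left of the cluster and not over it.

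**Figure D2:**
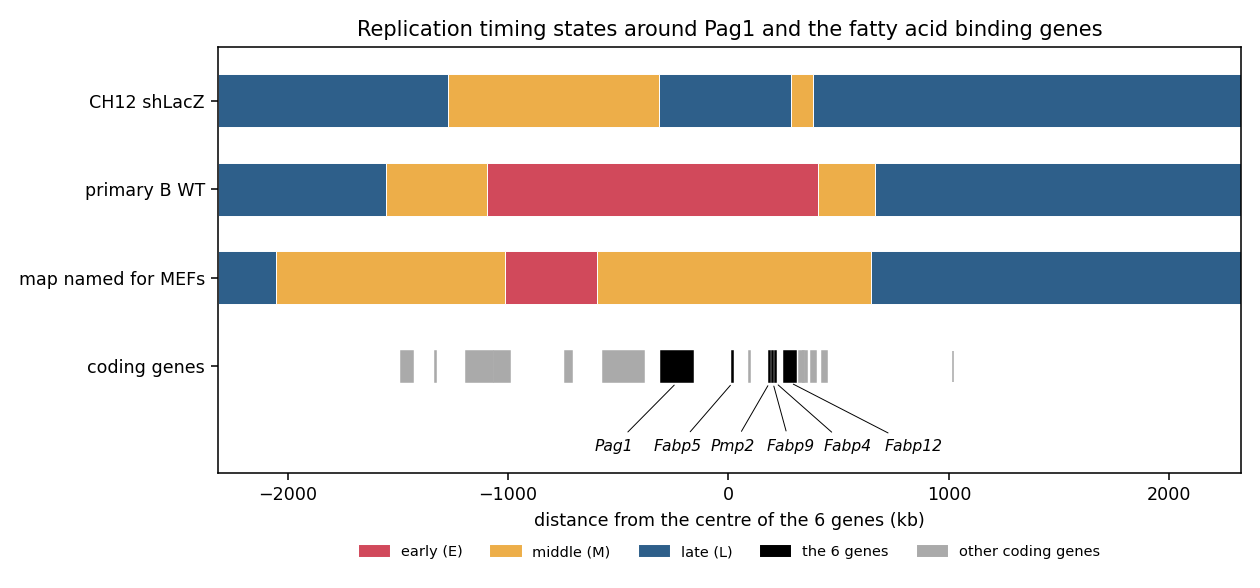
Domains of the 3 maps (rows) along the window of 2 Mb either side, against distance in kb from the centre of the 6 genes. Red is early, yellow middle and blue late, with the 6 genes in black and the other 13 coding genes in grey. The 600 kb late domain of CH12 falls within the span of the 1500 kb early domain of primary B cells and the 1240 kb middle domain of the map named for MEFs.

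A late domain lay on either side of the locus in all 3 maps, at different distances. On the left it was 5720 kb long in CH12 and 5440 kb in primary B cells, in both from base 3000001. In the MEF map it was only 280 kb, which is less than the smoothing span, with the M state beyond it. The gap between the late domain on the left and that on the right of the cluster, leaving aside the inner late domain of CH12, was 1660 kb in CH12, 2220 kb in primary B cells and 2700 kb in the MEF map. From CH12 to primary B cells both limits moved outwards by 280 kb. From primary B cells to the MEF map the left limit moved outwards by a further 500 kb, up to that short domain, whereas the right limit moved back by 20 kb, which is 1 bin. The right-hand edge beyond Snx16 was thus nearly the same in primary B cells and the MEF map, and the left-hand edge was not.

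Over the whole window of 232 bins, CH12 had no E bin (Wilson 95% upper limit 1.629%), 22.84% M and 77.16% L. Primary B cells had 32.33% E (26.64 to 38.59%), 15.52% M and 52.16% L, and the MEF map had 9.052% E (5.997 to 13.44%), 49.14% M and 41.81% L. These intervals cover counting over bins only, and neighbouring bins are not independent. On the whole of chromosome 3 the E share was 10.63% in CH12, 21.14% in primary B cells and 24.9% in the MEF map, and over the genome 22.72%, 28.61% and 30.74%. The window was lower in E than its chromosome in CH12 and in the MEF map, and higher in primary B cells. It was drawn around genes picked on these states, so this too is a description.

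**Figure D3:**
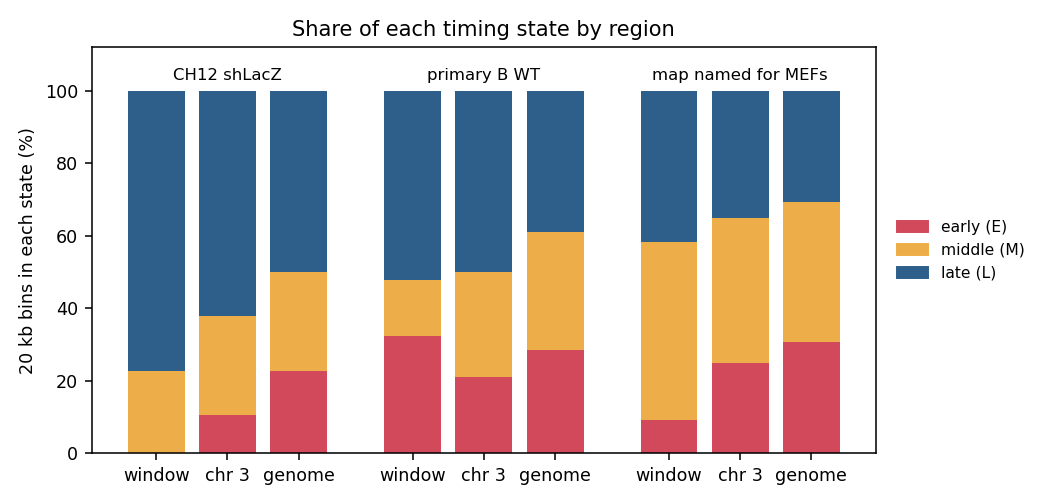
Percent of 20 kb bins that are early (red), middle (yellow) and late (blue) in the window around the cluster, on chromosome 3 and over the genome, for each of the 3 maps. The window has no early bin in CH12 and 32.33% early bins in primary B cells.

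Every difference in state between CH12 and primary B cells in the window ran one way, with states called in each map on its own. The state was the same in 130 of 232 bins (56.03%), earlier in primary B cells in 102 and earlier in CH12 in 0. On chromosome 3 the same state was found in 71.55% of bins and over the genome in 76.06%. Most differences ran the same way there too. Over the genome 20.32% of bins were earlier in primary B cells and 3.622% earlier in CH12, and on chromosome 3 25.63% and 2.824%. Bins E in 1 map and L in the other made up 13.36% of the window, against 0.9199% of chromosome 3 and 0.6608% of the genome. Of these 31 bins in the window, 30 form the stretch that holds the cluster. The locus was picked on those states, so the higher share is a description only. CH12 and the MEF map had the same state in 55.6% of the window, with 103 bins earlier in the MEF map and 0 earlier in CH12. Over the genome 30.5% of bins were earlier in the MEF map and 6.015% earlier in CH12. Primary B cells and the MEF map shared the state in 65.52%, and here 55 bins were later in the MEF map and 25 earlier. Over the genome 10.75% were later in the MEF map and 20.66% earlier. Over the 32 bins that the 6 genes themselves span, 30 were L and 2 M in CH12, all were E in primary B cells and all were M in the MEF map.

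The other 13 coding genes of the window placed the cluster among its neighbours. None started in E in CH12, 9 did in primary B cells and 2 in the MEF map. Over all coding genes the E shares were 50.6%, 58% and 58.6%. At 12 of the 13 the state was earlier in primary B cells than in CH12, against 18.8% of all coding genes. The exception was Gm8910, a predicted gene in the late stretch on the right. The 13 genes share the few domains around a locus picked on these states, so their counts are a description. Zfp704, a zinc finger gene directly left of Pag1, was M in CH12, E in primary B cells and M in the MEF map. The genes that follow Fabp12 in the 100 kb middle domain of CH12 had the same states as its annotated start. They are Impa1, an inositol monophosphatase, Slc10a5, a gene of the bile acid transporter family, Zfand1 and Chmp4c, a component of the ESCRT-III membrane scission machinery.

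Snx16, a sorting nexin gene on the right, and Stmn2 and Hey1 on the left, a neuronal stathmin and a transcriptional repressor of Notch signalling, were L in CH12 and M in both other maps. The nearest genes to the limits of the window were Stmn2 at 822 kb inside on the left and Gm8910 at 1286 kb inside on the right. Just outside lay Il7, the lymphocyte growth factor gene, 73.76 kb beyond the left limit with L, L and M, and Ralyl, 1476 kb beyond the right limit and L in all 3 maps.

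The late-to-early stretch was also measured among all stretches with that pair of states. Bins of this kind formed 75 runs with a median of 160 kb, and the run of the cluster, at 600 kb, ranked number 4, after 1380 kb on chromosome 16, 880 kb on chromosome 7 and 620 kb on chromosome 1. It held 3.619% of their 829 bins and 6 of their 133 coding gene starts. The cluster was picked on these states, so the rank of its run is a description. Only 21 runs exceeded the smoothing span of 300 kb. In the MEF map 37 of the 75 runs were wholly M, as this one was, 22 wholly E, 5 wholly L and 11 mixed.

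The run also filled its CH12 domain. Of the 750 late domains of CH12, 3 (0.4%) were E in primary B cells over their whole length, with a median of 200 kb, and the domain of the cluster was the longest of these 3. Among all CH12 late domains it was short, since the median was 1100 kb and 28.93% were shorter.

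**Figure D4:**
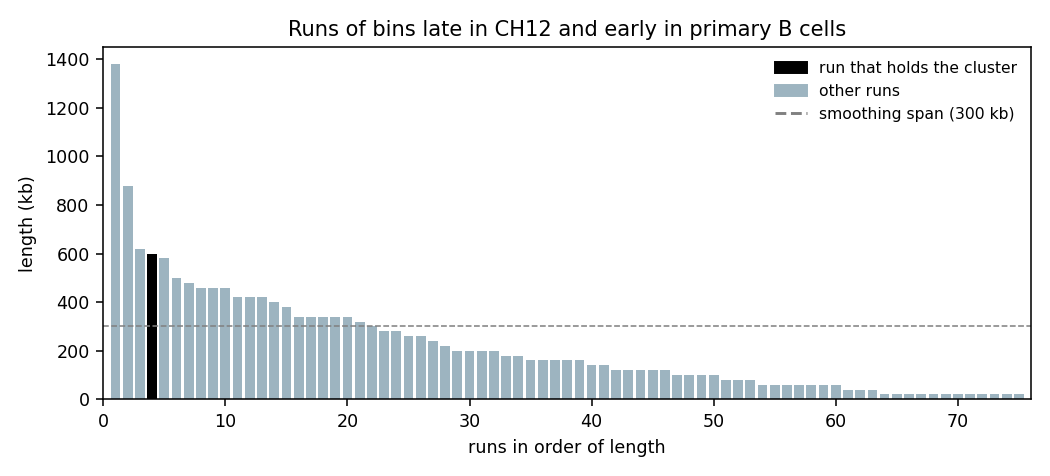
Length in kb of each of the 75 runs of bins that are late in CH12 and early in primary B cells, in order of length. The run that holds the cluster (black) is number 4, at 600 kb, above the dashed line of the 300 kb smoothing span.

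Base composition was not used in choosing the genes, but it differs between the states they were picked on. In CH12 the GC content was 45.74% in E, 42.75% in M and 39.45% in L. The 30 bins of the run had a median GC content of 42.72%, with quartiles of 42.17 and 43.7%. Over the genome the median was 39.08% in L bins of CH12, 44.96% in E bins of primary B cells and 41.23% in M bins of the MEF map. All bins with the L, E and M combination, those of the run included, had a median of 41.68%, with quartiles of 39.93 and 43.28%. All 30 bins were above the median of CH12 L bins and 28 above its upper quartile of 41.12%, while 4 were above the median of E bins of primary B cells. Taken as 1 sequence the run had 43.17% GC, and 53 of the 75 runs had less. It held 10 coding gene starts per Mb, against 3.763 in CH12 L domains, 17.57 in primary B E domains and 6.476 in MEF M domains. This density depends directly on the choice of genes, since 5 of the 6 starts in the run are members. All 75 late-to-early runs together held 8.022 per Mb, and all bins with the L, E and M combination 8.145. The stretches that adjoin the run had 45.72% GC on the left and 43.62% on the right, both above that of the run. Further right, the late stretch that begins beyond Snx16 had 37.69%. The cluster is 1 region, so these values are a description.

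**Figure D5:**
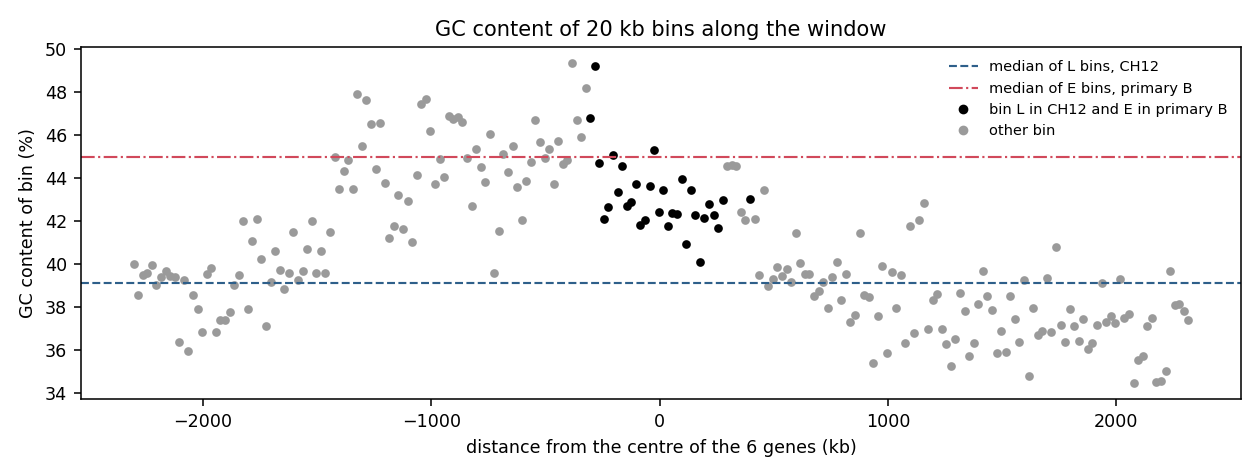
GC content in percent of each 20 kb bin of the window against distance in kb from the centre of the 6 genes. Black points are bins late in CH12 and early in primary B cells, and they lie between 40.09 and 49.2%, all above the 39.08% median of CH12 late bins (blue dashes), with 4 of the 30 bins of the cluster's run above the 44.96% median of primary B early bins (red).

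Relatives of the cluster elsewhere in the genome had other states, with 1 exception. Of the 11 genes listed for intracellular lipid binding proteins outside the cluster, 10 were found by symbol. Fabp7, the brain member of the family, at chr10:57504687-57508256, had L, E and M in CH12, primary B cells and the MEF map, the combination of the 5 members on chromosome 3. The others had no L state in CH12, a state that 22.1% of all coding genes had there. Fabp3, the heart and muscle member, Rbp7 and Crabp2 were E in all 3 maps, Rbp2 was M in all 3, and Fabp2 and Fabp6, the intestinal and ileal members, were M, M and E. Fabp1, the liver member, was E, E and M, and Crabp1 was E, M and E. Of the 10, 1 was earlier in primary B cells than in CH12, 1 later and 8 the same. Over the genome 76.06% of bins had the same state in both.

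The partners of Pag1 in Src family kinase signalling were mostly early where Pag1 was late. In CH12 11 of the 12 listed genes were E, including Csk, which Pag1 recruits, and the kinases Lyn, Fyn and Lck. In primary B cells 12 of 12 were E. The 1 that differed was Ptpn22, a phosphatase that acts with Csk, at M in CH12. In the MEF map 9 were E, and Lyn, Ezr and Ptprc were M. Over all coding genes 50.6% were E in CH12, 58% in primary B cells and 58.6% in the MEF map.

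Among genes tied to the tissues of the family members, none had the L, E and M combination. Of 10 genes of fat cells, where Fabp4 acts, none was L in either B cell map and 9 had the same state in both, with Pparg, the regulator of fat cell formation, at M in both and E in the MEF map. Cd36, a fatty acid receptor, was E in CH12 and M in primary B cells. Of the myelin genes, the company of Pmp2, Mag was E in all 3 maps, Pmp22 was L, M and E, and Mbp was E, M and M. Over the 37 genes found from these 4 lists, 3 were earlier in primary B cells than in CH12, against 18.8% of all coding genes, and 1, Fabp7, went from L to E. A gene that is E in CH12 cannot be earlier in primary B cells. This held for 11 of 12 Pag1 partners, 7 of 10 fat cell genes and 5 of 10 lipid binding genes, against 50.6% of all coding genes. The count of 3 and the 18.8% are therefore not on equal terms.

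The maps hold no RNA, so cell identity could not be read from expression. As a description, the B cell marker genes Cd79a, Cd79b, Ms4a1 and Pax5 were E in both B cell maps. In the MEF map Cd79a and Cd79b were E too, and Ms4a1 and Pax5 were M. All 5 fibroblast marker genes (Col1a1, Col1a2, Col3a1, Pdgfra and Pdgfrb) were E in the MEF map, against 2 of 5 in each B cell map. The E share of all coding genes was 50.6% in CH12, 58% in primary B cells and 58.6% in the MEF map. Whether any of the 6 genes of the cluster is transcribed in these cells was not analysed here.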

How the data were processed

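Per the authors' methods, Repli-seq reads were trimmed (Trim Galore 0.6.5), aligned to mm9 (BWA 0.7.17) and filtered for unique alignments (SAMtools 1.9). Reads of replicates were pooled and deduplicated. RT, the log2 of early over late signal, was taken in 20 kb windows (deepTools), loess smoothed over 300 kb and segmented into 3 states by a hidden Markov model. Tool versions are those of the submitters' processing notes. The files the authors deposited hold the start and end of each domain and a state number, with no RT value, count or score. Merging removes replicate spread, and smoothing blurs edges and can hide or shift narrow domains. The methods describe replicates as separately thawed vials of CH12 cells but also technical sorts, so which of these the 2 libraries per fraction are is not settled.

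The files do not say which number is which state. The numbers were read as 2 early, 1 middle and 0 late in CH12 and primary B cells and as 0 early, 2 middle and 1 late in the MEF map. In each map the numbers read as early and late never touched (0 contacts), and coding gene starts per Mb fell from early to middle to late, for example 18.86, 8.409 and 3.763 in CH12. The maps held 2625, 2661 and 2151 domains. All 20 chromosomes ended at their NCBIM37 lengths. Domains were placed on 131957 bins, of which 128935 had a state in all 3 maps.

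Genes came from the GENCODE M1 annotation and were placed by their start on their own strand. Named genes were the 6 members, the coding genes of the window that flank them, lie next to an edge or lie in a stretch with differing states, and lists of related lipid binding, Pag1 partner, fat cell, myelin and marker genes. Genes just outside the window were added to show its limits. The members and lists were chosen with earlier results of these data known. Some items of these lists are not reported here. Sequences were read from NCBIM37, as the RefSeq tables given are of another build. Protein identity, planned from RefSeq proteins, was not made, and coding sequences were aligned in its place over their full length (match 2.0, mismatch -1.0, gap opening -5.0, gap extension -0.5). Shares have Wilson 95% intervals. Alternatives were the state of most of the gene body or at the gene end, windows of 1 and 3 Mb, joining domains under 100 kb to a neighbour, leaving out starts or bins within 100 kb of an edge, all annotated genes and autosomes only. The functions recovered 8 of 8 known answers on simulated data. Maps of the other 5 groups were not analysed here. Python 3.11.15, numpy 2.4.6, scipy 1.17.1, Biopython 1.88 and matplotlib 3.10.9 were used.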

Additional observations from a re-analysis of the deposited data

How the results depend on the processing

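No paired analysis was possible because the study merged replicates before calling states, and leaving out replicates in turn could not be run for the same reason. Of 86 values obtained with other settings for 23 results, 62 kept within the main Wilson interval (shares) or within 1.5 times the main value (counts and background percentages), and 24 did not. Reversal of a direction was not scored. By gene body or gene end, 6 of 6 members were L in CH12 in place of 5, since most of Fabp12 lies in the late domain. With starts within 100 kb of an edge left out, 2 members (Pag1 and Fabp5) were left for CH12 and for both combinations with it, and both had the L state there, with E in primary B cells and M in the MEF map; the lower count comes from fewer genes. Joining domains under 100 kb to a neighbour could change nothing in the window, since no domain there is under 100 kb. The values from this setting are counted among the 62 all the same, so they tell nothing of stability. The middle domain at Fabp12 is 100 kb long and was left as it is, so its removal was not tested.

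The shares moved with the width of the window. With 1 Mb either side, CH12 had 40.15% M and 59.85% L, primary B cells 56.82% E and 25% L, and the MEF map 15.91% E, 58.33% M and 25.76% L. The same state was then found in 31.82% of bins for CH12 and primary B cells and in 58.33% for primary B cells and the MEF map. With 3 Mb either side, CH12 had 15.96% M and 84.04% L, primary B cells 22.59% E, 10.84% M and 66.57% L, and the MEF map 39.16% M and 54.52% L, with the same state in 69.28% of bins for CH12 and primary B cells and 64.16% for CH12 and the MEF map. Without bins within 100 kb of an edge, primary B cells had 8.333% M and the MEF map 5.851% E, and CH12 and primary B cells had the same state in 66.47%.

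Edges are given to 20 kb but the study smoothed over 300 kb, so the 100 kb middle domain at Fabp12 and shifts of 20 to 280 kb lie within the smoothing span. RT values and read depth are unknown here.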
